A study of Mus musculus with 2 samples.

Results

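Genes for building ribosomes and for processing their RNA were compared between 2 expression arrays of MOS-J cells, a mouse osteosarcoma cell line. The genes were taken by name. A probe set belonged to the set when it carried 1 gene symbol alone and that symbol was Utp, Nop, Nol, Rrp, Exosc or Rpp followed by a number, or was Fbl, Ncl, Npm1, Dkc1, Bop1, Pes1 or Wdr12. This gave 125 probe sets for 60 genes, out of 45101 probe sets on the array and 18193 genes with a probe set of their own. The set as a group was chosen by the log2 differences between these same 2 arrays, so the differences below describe it and test nothing.

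One array holds RNA of MOS-J cells carrying a control lentiviral vector (control) and the other holds RNA of MOS-J cells carrying a human DKK1 lentiviral vector (DKK1). Human DKK1 is a secreted blocker of canonical Wnt signalling. The treatment protocol tells of viral delivery with clones selected in G418, and separately of a plasmid put in by electroporation with selection in blasticidin, after which mitochondria were labelled red and cells sorted. The sources used here do not say which route either group took, or whether a group was 1 clone. Each group has 1 array, so no value has a replicate error, no test across genes was possible, and every difference is the DKK1 array minus the control array.

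Ribosomes are assembled in the nucleolus, where RNA polymerase I makes a long precursor RNA. Small nucleolar ribonucleoproteins modify and help cut that precursor, the small subunit processome folds and cleaves the part that becomes the small subunit, and other factors shape the large subunit. The RNA exosome trims and degrades RNA from its 3' end, and RNase P and RNase MRP are related enzymes that cut transfer RNA and ribosomal RNA precursors. Growing cells make many ribosomes, and the transcription factor MYC is known to raise the expression of many of these genes.

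The values are MAS5 signals, 1 per probe set on a linear scale, scaled to a trimmed mean of 500 on both arrays. Differences were taken as log2(signal + 16.6), with 16.6 set at percentile 25 of the signals of both arrays, and a probe set counted as measured when its mean signal reached 71.3, the median over all probe sets. Between the arrays, the 18 hybridisation controls differed by a median of −0.37 (log2 ratio) and the 20 measured poly-A controls, which go through labelling, by 0.64. These spike-ins moved in opposite directions, so a shift shared by all genes cannot be fixed by these arrays. The 3' to 5' signal ratio of Gapdh was 0.823 on the control and 0.759 on the DKK1 array, and that of Actb was 1.61 and 1.25. Of 12 bone markers listed, 8 had a probe set of their own, and Runx2, Spp1, Bglap and Bglap2 had none. Of the 8, 5 had a measured probe set (Col1a1, Col1a2, Sparc, Sp7 and Alpl). The late markers Ibsp and Dmp1 and the receptor gene Pth1r did not. Sp7 (87.0 in control, 117 in DKK1 cells) and Alpl (147 and 182) were near the filter. The summed signal of the bone markers, nearly all from Col1a1, Col1a2 and Sparc, was 55460.3 on the control and 63772 on the DKK1 array. Of the 6 leukocyte markers on the array 2 were measured (Cd68 and Csf1r, both near the filter), and the summed signal of the list was 497 and 599.7. Of the 4 endothelial markers 1 was measured (Kdr), with sums of 169 and 177, of the 4 epithelial ones 2 (Epcam and Krt8), with sums of 418 and 633, and of the 5 cartilage ones 2 (Sox9 and Col11a1), with sums of 1678 and 2386. The defining markers Ptprc of leukocytes and Pecam1 and Cdh5 of endothelium were below the filter on both arrays. The part of these cell types in the results was not tested.

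Of the 60 genes, 58 were measured, and Exosc6 and Rpp25 were too dim. In the DKK1 cells 18 of the 58 were called lower, 31.0%, where the share among all 11058 measured genes was 6.91%. A gene was called when the mean difference of its measured probe sets was at least 1 on the log2 scale, or 2-fold, and all of them had that sign. Only 1 of the 58 was called higher, where the share among all measured genes was 11.7%, and this was Nol4, whose protein has no known part in ribosome assembly. The median difference of the 58 genes was −0.73, with a range from −2.16 to 1.89, and that of all measured genes was 0.10. Of the 58, 49 were below 0, as were 4873 of all 11058 measured genes. In the lowest 10% of all measured genes lay 28 of the 58. A further 20 genes lay between −0.5 and −1. The nearest uncalled genes were Fbl, Nop9 and Exosc5 at −0.94, and the nearest called ones were Rrp1b at −1.03 and Exosc9 at −1.04. In RNA of whole cultures, fewer cells of a kind and less RNA per cell cannot be told apart.

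**Figure D1:**
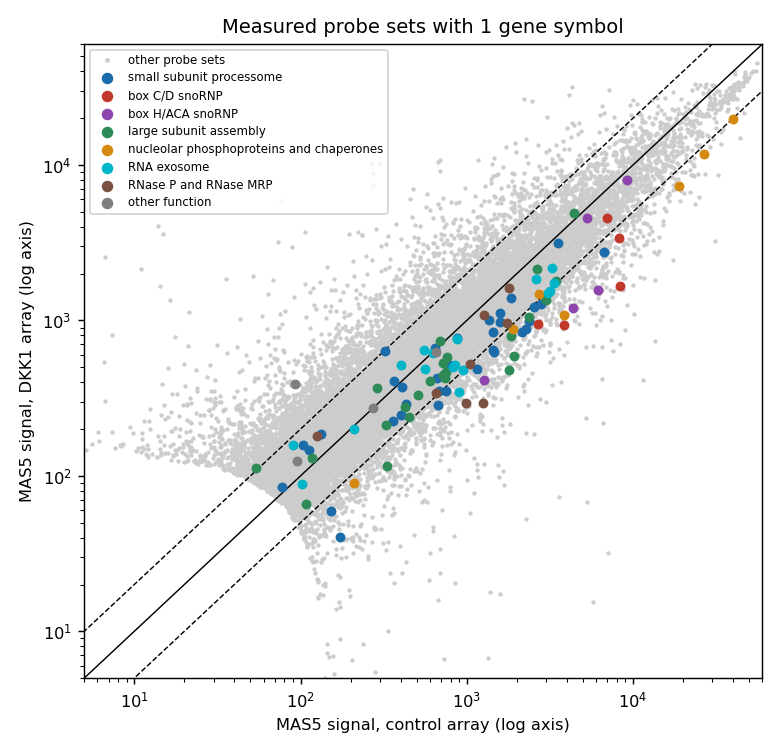
Signal of each measured probe set with 1 gene symbol on the control array (horizontal, log axis) and on the DKK1 array (vertical, log axis), with the genes of the set coloured by role, the solid line at equal signal and the dashed lines at 2-fold. Most coloured points lie below the solid line, and 37 of the 104 measured probe sets of the set are at or past 2-fold lower (7.51% of all such probe sets) and 1 is past 2-fold higher (12.1% of all).

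Among the small nucleolar ribonucleoproteins was the gene with the lowest value of the set. This was Nop56, a core protein of the box C/D particles that guide methylation of ribosomal RNA. It had signals of 8301 and 3817 at its 2 probe sets in control and of 1668 and 929 in DKK1 cells. Both probe sets were clearly lower, by a mean of −2.16 (SD 0.20), or 4.47-fold. Its partner Nop58 went from 2663 to 942 (−1.48). Fbl, the methyltransferase of the same particle, had signals of 6970.4 and 8188 in control and of 4538 and 3388 in DKK1 cells. Its mean of −0.94 (SD 0.46) stopped short of the call, and only 1 of its probe sets was past 2-fold.

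Dkc1 encodes dyskerin, the pseudouridine synthase of the box H/ACA particles, which also binds the telomerase RNA. Its 3 probe sets read 6172, 4352 and 1261 in control and 1575, 1207 and 412 in DKK1 cells. All were lower to a like extent, with a mean of −1.79 and an SD of 0.20. The small protein of the same particle, encoded by Nop10, had signals of 9176 and 5304 in control and 7989.9 and 4591 in DKK1 cells. Its difference was −0.20 (SD 0.01), so the members of this particle were not lower alike on these arrays.

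Of the 5 genes called lower under each of the 11 other ways of computing the difference (Dkc1, Nop56, Nop58, Rpp40 and Wdr12), 4 have a single start site in the promoter table. The 120 bases before the starts of these 4 are shown because their calls were kept. Their shared direction follows from that choice. The stretches come from RefSeq on build GRCm38.p6, written 5' to 3' on the gene's strand. Capitals mark a GC box (GGGCGG) or a CCAAT box (CCAAT) on either strand.
Nop56 (chr2:130274292-130274411, plus strand): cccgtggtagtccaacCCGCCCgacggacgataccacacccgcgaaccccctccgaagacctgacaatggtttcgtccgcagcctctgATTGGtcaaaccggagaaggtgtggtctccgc
Nop58 (chr1:59684886-59685005, plus strand): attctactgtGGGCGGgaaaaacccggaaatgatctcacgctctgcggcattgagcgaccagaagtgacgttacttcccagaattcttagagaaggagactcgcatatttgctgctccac
Dkc1 (chrX:75095734-75095853, plus strand): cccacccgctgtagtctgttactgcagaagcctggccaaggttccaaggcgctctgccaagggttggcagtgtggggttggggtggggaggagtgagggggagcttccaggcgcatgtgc
Rpp40 (chr13:35906348-35906467, minus strand): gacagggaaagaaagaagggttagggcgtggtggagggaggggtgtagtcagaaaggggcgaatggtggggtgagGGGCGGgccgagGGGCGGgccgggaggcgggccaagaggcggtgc
Rpp40 holds GC boxes 45 and 33 bases before the start, Nop58 has one at 110 bases and Nop56 at 104. Nop56 also has a CCAAT box 32 bases before its start. The stretch of Dkc1 holds neither, so the 4 stretches share no motif of those searched.

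Of the 21 measured genes of the small subunit processome, 8 were called lower (38.1%, all genes 6.91%) and 0 higher, with a median of −0.74. Rrp9, a WD-repeat protein that binds the U3 small nucleolar RNA, went from 172 to 40.5. The DKK1 signal lies below the filter, and raising it to 71.3 leaves the gene at least 2.41-fold lower (−1.72 as computed). With the stricter filter (mean signal 427) Rrp9 was not measured. Utp20, a large scaffold protein, went from 2259 to 874 and Utp4 from 2157 to 838, both −1.35. Both of these were far above the filter on each array, so their differences hardly depend on the added 16.6. Utp25 went from 1157 to 485 (−1.23), Nop14 from 670.1 to 284 (−1.19), Utp18 from 2812 to 1272 (−1.13) and Nol10 from 748 to 349 (−1.06). Utp11, with signals of 6706 and 2525 in control and 2773 and 1221 in DKK1 cells, was lower by both (−1.15, SD 0.16). These are all components or close partners of the processome. Utp11 and Utp18 each have a dim probe set that did not pass the filter, and with those included both calls ended. That of Nol10 ended with the pseudocount 4 times larger (−0.97).

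The other 13 genes of this group ran from −0.94 to 0.94. Nol11 had 3 lower probe sets at −1.17, −1.13 and −0.75 and a dim one at 0.11, and so was not called at −0.74. Utp14a was split between a bright probe set that went from 2350.3 to 988 and a dim one that went from 112 to 146. Utp14b is a copy of Utp14a made by retrotransposition, and went from 132 to 185 (0.43). The highest of the group was Nol6, an RNA-associated protein of the processome, which went from 324 to 638 (0.94) at its 1 measured probe set, and from 33.5 to 36.5 at a dim one.

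**Figure D2:**
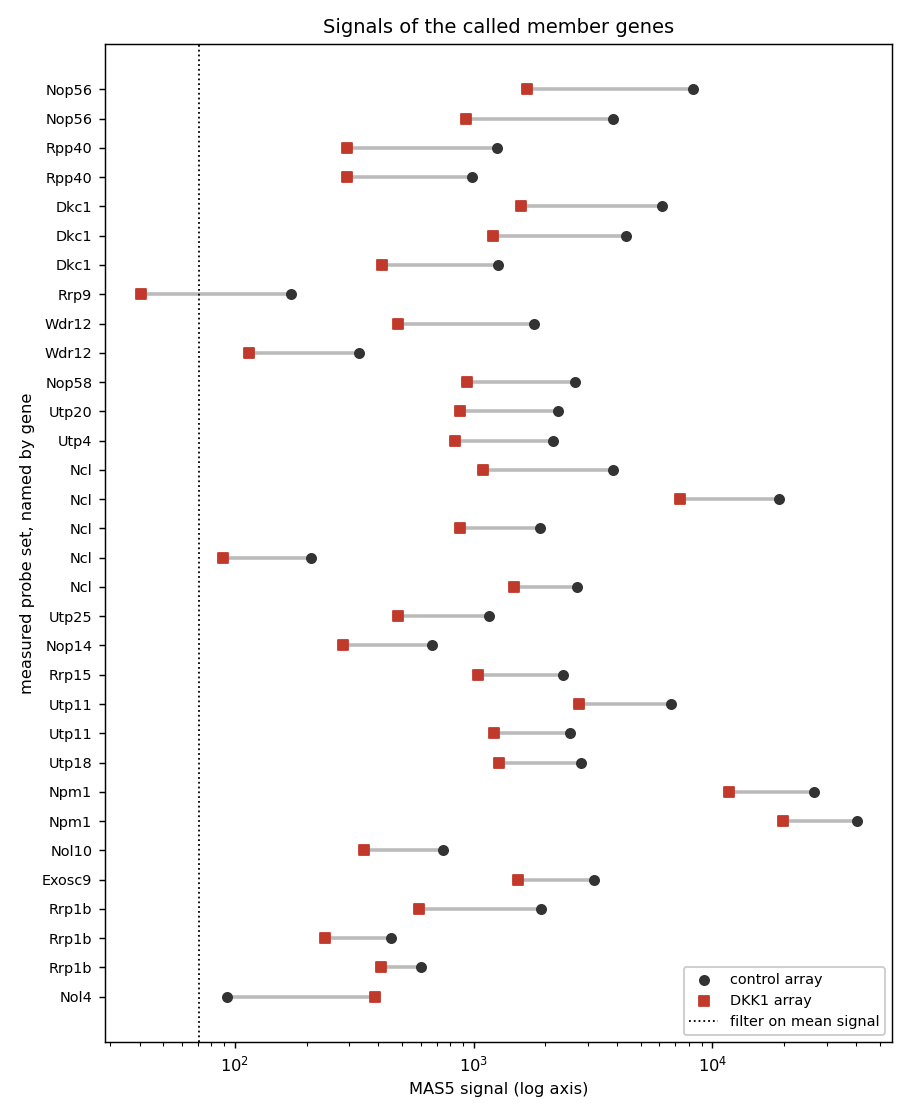
Signals of every measured probe set of the 19 called genes on the control array (circles) and the DKK1 array (squares), on a log axis, ordered by the gene's difference, with the dotted line at the filter. All measured probe sets of the 18 lower genes have the DKK1 signal to the left of the control signal, while Nol4 runs from 92.9 to 388.

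Large subunit factors had 3 of 13 genes called lower (23.1%, all genes 6.91%) and 0 higher, with a median of −0.68. Wdr12, Pes1 and Bop1 form the PeBoW complex, which is needed to mature the RNA of the large subunit. Its 3 genes gave different values. Wdr12 went from 1789 to 483 and from 333 to 115 at its measured probe sets (−1.63, SD 0.32). Pes1 went from 1850.0 to 796 and from 506 to 329 (−0.90, SD 0.43), short of the call. Bop1 went from 759.7 to 582 and from 118 to 131, a mean of −0.12 (SD 0.36) with its probe sets on both sides of 0. Rrp15 (2362 to 1047, −1.16) and Rrp1b (−1.03, SD 0.58 between 3 probe sets) were the other called genes. The probe sets of Rrp1b ran from −0.54 to −1.67, and its relative Rrp1 stood at 0.01. The call of Rrp1b ended with the pseudocount 4 times larger (−0.95). The highest was Nop53, a late factor that brings the exosome to the precursor RNA, at 0.37 (SD 0.43, 3 probe sets).

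Nucleolin (Ncl) and nucleophosmin (Npm1), abundant nucleolar proteins that bind RNA and chaperone ribosomal proteins and histones, were both called lower. Npm1 had signals of 40116 and 26534 in control and 19746 and 11729 in DKK1 cells (−1.10, SD 0.11). Ncl has 5 probe sets, and every one was lower in the DKK1 cells. They read 18942, 3834, 2715, 1903 and 209.7 in control and 7339.5, 1091, 1476, 879 and 89.6 in DKK1 cells, with a mean of −1.25 and an SD of 0.35. The call of Npm1 ended with quantile normalization (−0.88), loess (−0.83) and hybridisation control scaling (−0.73), and that of Ncl ended with the last of these (−0.89).

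The RNA exosome has a ring of 6 proteins (Exosc4 to Exosc9) under a cap of 3 (Exosc1 to Exosc3), with Exosc10 as a nuclease of its nuclear form. Of the 9 measured genes, 8 had values below 0 (all genes 4873 of 11058), and the median was −0.71. Called lower was 1 (11.1%, all genes 6.91%). The called gene was the ring gene Exosc9, which went from 3185 to 1541 (−1.04), and its call ended with loess (−0.97) and hybridisation control scaling (−0.67). Exosc5 went from 944 to 483 (−0.94) and Exosc7 from 2605 to 1840.3 (−0.50). Exosc4 averaged −0.85 with probe sets at −1.34, −1.02 and −0.19, and Exosc8 averaged −0.57 (SD 0.52). The ring genes with a measured probe set were thus all below 0, with 1 past the 2-fold line. Of the cap genes, Exosc2 went from 828 to 498 (−0.72), Exosc3 from 852 to 516 (−0.71), and Exosc1 averaged −0.27 (SD 0.26). The 4 probe sets of Exosc10 read 622, 549.9, 402 and 90.6 in control and 621, 644, 520.3 and 158 in DKK1 cells, a mean of 0.32 (SD 0.30). The value of Exosc10 was −0.00 with the brightest probe set and −0.28 with poly-A control scaling. Exosc6 had signals of 16.7 and 8.18, too dim to compare.

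Among the protein subunits of RNase P and RNase MRP, Rpp40 had the lowest value. Its probe sets went from 1257 to 296 and from 989 to 295, a difference of −1.86 (SD 0.24) or 3.63-fold. Rpp14 (−0.90, SD 0.10 between 2 probe sets) and Rpp21 (649 to 341, −0.90) were lower by less than 2-fold. Rpp25l, a relative of Rpp25, went from 1276 to 1082 (−0.24), and Rpp30 averaged 0.17 with a bright probe set at −0.15 and a dim one at 0.48. The 5 measured subunits of these enzymes thus ranged from 3.63-fold lower to slightly above 0, and 1 was called.

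**Figure D3:**
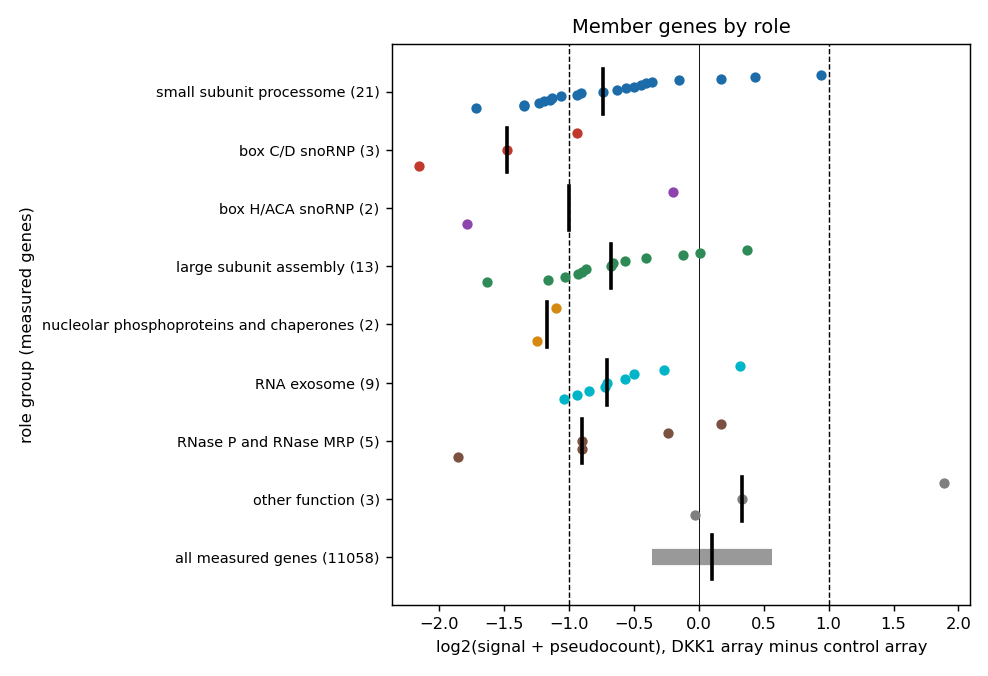
Log2 difference of each measured gene, DKK1 minus control (points), by role group, with the group's median (black bar) and dashed lines at 2-fold; the grey bar spans the middle quartiles of all measured genes. The medians of the 7 groups with a role in ribosome assembly or RNA processing run from −0.68 to −1.48 and that of all genes is 0.10.

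The names of 3 genes fit the naming rule although their proteins are known for other things. Nol3 encodes an inhibitor of apoptosis and read 656 and 273 in control against 627 and 272 in DKK1 cells (−0.03). Nol4, best known from neural tissue, went from 92.9 to 388 (1.89) at its measured probe set, and 2 dim probe sets read 27.6 and 4.04 in control against 82.0 and 3.41 in DKK1 cells. With those dim probe sets the call of Nol4 ended. Nol4l stood at 0.33. Without these 3 genes, 18 of 55 were called lower (32.7%, all genes 6.91%) and 0 higher (all genes 11.7%), and the median was −0.85.

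Probe sets of 1 gene gave a view of technical agreement within the arrays. For 30 genes at least 2 probe sets were measured. In 21 of these genes all probe sets were below 0, in 8 they had both signs, and in 6 all were at least 2-fold lower. Among all genes with as many probe sets, 3.27% were that consistently lower. The 6 were Dkc1, Nop56, Npm1, Rpp40, Utp11 and Wdr12. The pooled SD between probe sets of a gene was 0.41 for the set and 0.45 for all genes. Of the 18 called genes, 10 rest on 1 measured probe set, so for these there is no second reading. Required of every measured probe set, at least 2-fold lower held for 16 of the 58 genes, where the share among all measured genes was 5.75%.

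Of the 104 measured probe sets, 37 were at least 2-fold lower (35.6%, where the share among all measured probe sets was 7.51%) and 1 was at least 2-fold higher (12.1% of all). Brightness went along with the size of the difference. The 45 probe sets with a mean signal of 1000 or more had a median difference of −1.04, and 26 of them were at least 2-fold lower, where all probe sets of that brightness had a median of −0.08 and a share of 10.6%. The 45 between 200 and 1000 had a median of −0.59, against 0.11 for all probe sets there. The 14 dimmest had a median of 0.23, and for all probe sets in that range it was 0.24. In 24 of the 30 genes with several measured probe sets the brightest was lower than the dimmest, where the share among all such genes was 60.6%. The part of probe set brightness in these differences was not tested. In the band of mean signal that held the middle of the set (467 to 1549), 7 of 28 members were called lower, where the share among all genes in that band was 6.85%.

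The scaling of the arrays set how many genes were past 2-fold. Scaled on the hybridisation controls, 6 of the 58 genes were called lower (Nop56, Rpp40, Rrp9, Dkc1, Wdr12 and Nop58) and 2 higher (Nol4 and Nol6), with a median of −0.38, and 42 of 58 were below 0. Among all measured genes that scaling called 3.62% lower and 21.6% higher, and their median was 0.45. On the poly-A controls, 42 were called lower and 1 higher, with a median of −1.33, where 23.1% of all measured genes were called lower and 509 of 11058 higher. After median centring 28 were lower, where the share among all genes was 9.56%. The distance between the median of the set and the median of all measured genes ran from −0.75 to −0.93 over these and the other settings. A constant factor moves both medians alike, so a distance kept under such a scaling is no check on it.

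**Figure D4:**
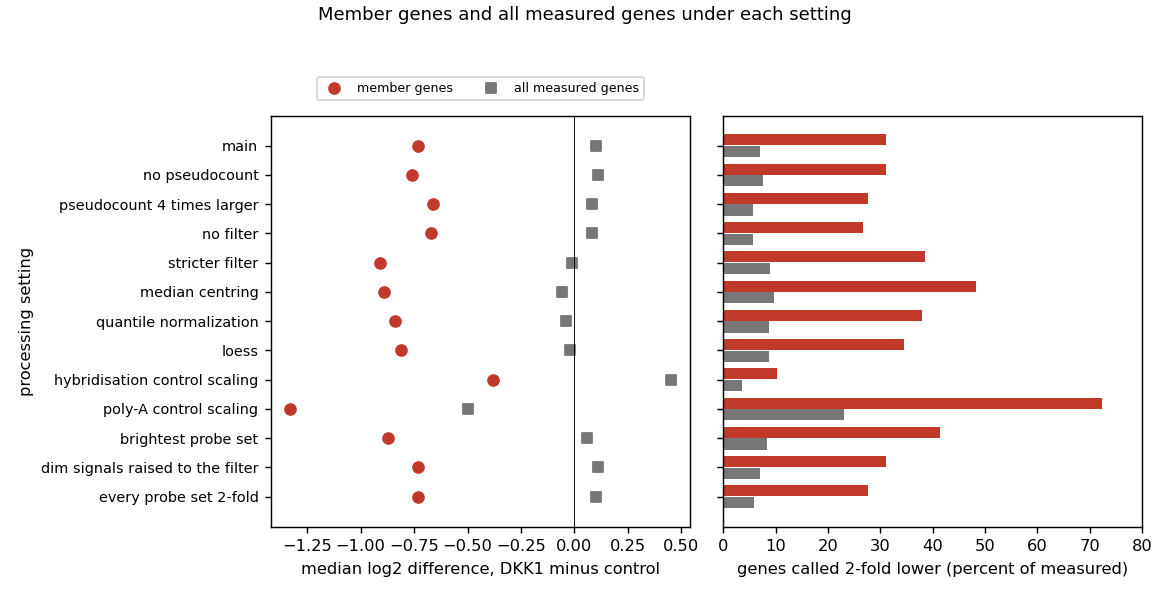
Left, median log2 difference of the member genes (circles) and of all measured genes (squares) under each processing setting; right, the percent of measured genes called 2-fold lower, members in red and all genes in grey. The set's median lies below that of all genes in each setting, and its share of lower calls runs from 10.3% with hybridisation control scaling to 72.4% with poly-A control scaling.

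Other genes of the same pathway were taken from lists written from textbook knowledge. Of 96 further ribosome assembly factors, 32 were called lower (33.3%, all genes 6.91%) and 0 higher, with a median of −0.78. The largest differences were those of Ngdn (−2.22, SD 0.15), a processome component, Nhp2 (−2.09, SD 0.30), the partner of dyskerin in the box H/ACA particle, and Rrs1 (−1.71, SD 0.05), a large subunit factor. All 3 calls were kept under the 11 alternatives. Of 15 genes of RNA polymerase I and its factors, 3 were lower and 0 higher, with a median of −0.51. The lower ones were Twistnb (−1.13), Polr1e (−1.06) and Polr1b (−1.06), all polymerase subunits, and all 3 calls ended with hybridisation control scaling.

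Among 16 catalytic subunits and cofactors of the exosome, 3 were lower (18.8%, all genes 6.91%) and 0 higher, with a median of −0.33. Dis3, the exonuclease that gives the exosome most of its activity, went from 2761 to 311 (−3.08) at its 1 measured probe set, a larger difference than that of any gene of the set. Tent4b, a polymerase that adds short A tails to exosome targets, went from 6918 to 2584 (−1.42), and Mphosph6 from 1555 to 705 (−1.12). Of the 4 other RNase P and MRP proteins, 0 were called lower or higher (all genes 6.91% and 11.7%), with a median of −0.18. Scaled on the hybridisation controls, the medians of these last 2 lists were 0.01 and 0.19, where that of all measured genes was 0.45.

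The protein parts of the ribosome were set beside its assembly factors. Of 46 measured cytosolic ribosomal protein genes, 0 were called lower or higher (all genes 6.91% and 11.7%). Their median was −0.41, with a range from −0.93 to 0.33. Many of them were very bright, such as Rplp2 (48094 to 35742) and Rps4x (48093 to 34907), while others such as Rpl39 (445 to 421) were not. The part of signal level in these values was not tested. Of 76 mitochondrial ribosomal protein genes, 9 were lower (11.8%, all genes 6.91%) and 1 higher (1.32%, all genes 11.7%). Their median was −0.35, and the lowest was Mrps35 (1796 to 485, −1.85). Both medians lie between that of the assembly factors and that of all genes. With 1 array per group, the difference between these lists could not be tested. On the hybridisation controls the medians of the cytosolic and mitochondrial lists were −0.04 and −0.00, and that of all measured genes was 0.45. The direction of the mitochondrial median is thus not settled. The cytosolic median was −0.08 with quantile normalization and −0.11 with loess, where those of all genes were −0.04 and −0.02.

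**Figure D5:**
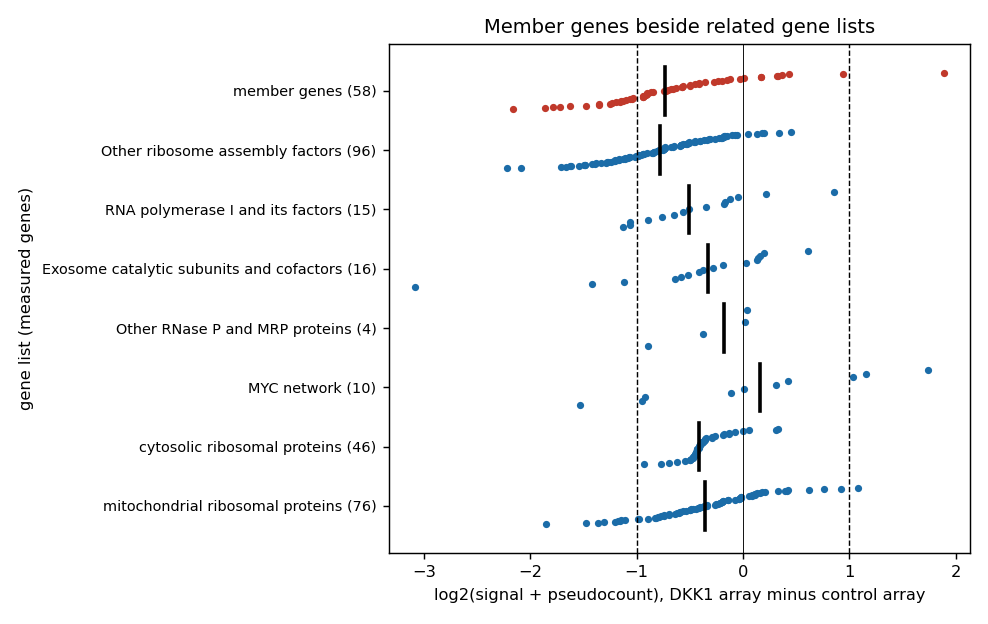
Log2 difference of each measured gene, DKK1 minus control, for the member genes (red) and for related gene lists (blue), with the list's median as a black bar and dashed lines at 2-fold. The members (median −0.73) and the other assembly factors (−0.78) have lower medians than the cytosolic ribosomal proteins (−0.41), none of which is past 2-fold.

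The MYC network went both ways. Myc itself went from 3597 to 1235 (−1.53), a call kept under the 11 alternatives, and its dimerisation partner Max went from 385 to 191 (−0.95). The genes of the MXD family, whose proteins compete with MYC for MAX, were called higher in 3 cases. Mxd4 was higher by 1.74 (SD 1.07 between 4 probe sets), Mxd3 by 1.16 (SD 0.47, 3 probe sets) and Mxd1 by 1.03, from 90.8 to 203. Mxi1, of the same family, stood at 0.42 (SD 0.42, 2 probe sets) and was not called. No probe set of Mxd1 or Mxd3 passed the stricter filter (mean signal 427). With poly-A control scaling, quantile normalization and loess all 3 calls ended. With the pseudocount 4 times larger only that of Mxd4 was kept, that of Mxd3 also ended with the brightest probe set, and that of Mxd1 without the filter and with median centring. Of the 10 measured genes of this list 1 was lower (10.0%, all genes 6.91%) and 3 were higher (30.0%, all genes 11.7%). The median of the list was 0.16, where that of all genes was 0.10. With the poly-A controls it turned to −0.45, and that of all genes to −0.50.

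MYC with MAX binds the E-box CACGTG, and this motif was looked for in the promoter windows, which run from 250 bases before a start to 50 after it. Of the 60 genes, 46 had a window, and 10 of those (21.7%) held the motif, where 8.91% of 17491 protein-coding genes did. The share was 4 of 15 among the genes called lower and 6 of 29 among the other measured ones. The NRF1 motif was found in 10 of the 46 (21.7%, all genes 7.17%) and the GC box in 34 (73.9%, all genes 49.2%). The ETS motif CCGGAAGT was found in 5 (10.9%, all genes 5.69%), the CCAAT box in 15 (32.6%, all genes 42.3%) the TATA box TATAAA in 5 (10.9%, all genes 14.8%) and the CRE motif TGACGTCA in 0 (all genes 2.54%). Both strands were searched, and overlapping matches of different motifs were each counted. The windows of the set held a median of 21.5 CpG pairs against 13.0 for all genes, and the E-box, NRF1, GC box, ETS and CRE motifs contain that pair. The part of base composition in these shares was not tested.

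In 5 of the 46 genes (10.9%, where 3.09% of all genes had it) the E-box lay within the last 70 bases before the start. These stretches are shown to place the E-box in the sequence. They come from RefSeq on GRCm38.p6, 5' to 3' on the gene's strand, with the E-box in capitals.
Exosc5 (chr7:25659083-25659152, plus strand): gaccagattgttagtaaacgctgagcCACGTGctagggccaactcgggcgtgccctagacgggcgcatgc
Nol11 (chr11:107189382-107189451, minus strand): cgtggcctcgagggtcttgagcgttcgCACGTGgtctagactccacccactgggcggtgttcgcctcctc
Nop2 (chr6:125131813-125131882, plus strand): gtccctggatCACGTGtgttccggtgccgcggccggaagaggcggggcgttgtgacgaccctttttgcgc
Utp14b (chr1:78658370-78658439, plus strand): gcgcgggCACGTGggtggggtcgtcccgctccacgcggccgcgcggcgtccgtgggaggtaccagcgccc
Utp18 (chr11:93885767-93885836, minus strand): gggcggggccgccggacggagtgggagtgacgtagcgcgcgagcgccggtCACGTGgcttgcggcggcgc
Their differences ran from −1.13 for Utp18, the called one, through −0.94 for Exosc5, −0.74 for Nol11 and −0.41 for Nop2 to 0.43 for Utp14b. The promoters of Nop56, Nop58, Dkc1 and Rpp40, printed above, hold no E-box in their windows. A match is a description of the letters in the window, not evidence of binding.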

How the data were processed

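Each of the 2 samples was hybridised to 1 Affymetrix mouse array, from 500 ng of total RNA per the labels' protocols. The authors deposited 1 linear intensity per probe set, made with MAS5 per the submitters' processing notes; the sources used here give no version, settings or detection calls. Symbols came from the platform annotation and were checked by gene ID against RefSeq (GRCm38.p6): of 34945 probe sets with 1 symbol, 34741 matched and 0 changed.

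Differences, the filter and the call are defined in the results. They were computed with Python 3.11.15, numpy 2.4.6 and pandas 2.3.3, and the code was tested on simulated data. No count depth exists for arrays, and 1 array per group limits the precision. The set, the lists and the rules were chosen with earlier results of these data known. Older symbols were matched through a short alias list. The list of cytosolic ribosomal proteins includes genes with like names such as Rpl22l1. The genes named were those called, the highest and lowest of each role group, and Npm1, Ncl, Fbl, Dkc1 and Pes1; other genes were named after their values were seen. Alternatives changed the pseudocount, the filter, the scaling, the choice of probe set and the call. Scalings kept the same measured probe sets and pseudocount.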

Additional observations from a re-analysis of the deposited data

How the results depend on the processing

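No paired analysis was possible because each group has 1 array. The count of members called lower, 18, was 28 with median centring, 6 with hybridisation control scaling and 42 with poly-A control scaling, and between 16 and 24 under the other 9 alternatives. The count called higher, 1, was 0 without the filter and 0 with the stricter filter, and 2 with hybridisation control scaling. The median of the members, −0.73, was −0.91 with the stricter filter, −0.89 with median centring, −0.84 with quantile normalization, −0.38 with hybridisation control scaling, −1.33 with poly-A control scaling and −0.87 with the brightest probe set. Medians that changed sign were those of the 3 genes of other function (−0.06 with the stricter filter, −0.22 with poly-A control scaling), of the exosome cofactors (0.01 with hybridisation control scaling), of the other RNase P and MRP proteins (0.03 without the filter, 0.02 with the stricter filter, 0.19 with hybridisation control scaling), of the MYC network (−0.45 with poly-A control scaling) and of all measured genes (−0.01 with the stricter filter, −0.06 with median centring, −0.04 with quantile normalization, −0.02 with loess, −0.50 with poly-A control scaling). With hybridisation control scaling the median of all measured genes was 0.45. For the 19 called genes, 187 of 207 values kept the call, 20 lost it and 0 changed sign. Rrp9 and Nol4 are not in this count for the stricter filter, under which they were not measured. Of 88 values for the 8 named genes that were not called, 8 became called, for Fbl, Pes1 and Nol6. The cause was not tested. Dim probe sets have the least reliable signals, and 1 array per group leaves the spread between cultures unknown.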
